A study of Mus musculus with 9 samples.

Results

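Osteogenic induction was followed in cultured progenitor cells of the mouse mandibular periosteum, the membrane that covers the jaw bone. Control cells after 3 days in osteogenic medium (day 3) were set against control cells that had received none of it (day 0). The comparison took 6 of the series' 9 libraries, 3 a side, and all genes with enough reads, which were 13013 of the 21958 in the table. Both groups were Plagl1 fl/fl and are labelled as controls: the floxed allele is present in day 3 and day 0 cells alike, and no Cre is given for either. The day 3 cells were kept for 3 days in medium to which dexamethasone (100 nM), ascorbic acid (50 ug/ml) and b-glycerophosphate (5 mM) had been added. The day 0 cells were harvested without these additions. The other 3 libraries, of CTSK-iCre;Plagl1 fl/fl cells at day 3, entered only the shared estimate of the spread. Time in culture and the medium change together here and cannot be told apart. Whether the libraries within a group stem from separate animals or cultures is not stated, so p-values reflect only how much these libraries varied, and that variation could be technical.

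The 3 additions do different things. b-Glycerophosphate is a source of phosphate once alkaline phosphatase has cleaved it, ascorbic acid is a cofactor of the enzymes that hydroxylate collagen, and dexamethasone is a synthetic ligand of the glucocorticoid receptor, a transcription factor. In this medium, progenitors of the osteoblast lineage stop dividing over days to weeks, lay down a collagen matrix and later mineralise it. Glucocorticoids also act on macrophages and on the molecular clock, and can favour fat-cell differentiation of stromal cells.

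The 6 libraries held 16204327 to 19859744 reads, and the tested genes took 99.959% to 99.963% of them. Values are given as CPM (counts scaled to library size, with TMM factors), or as FPKM where genes of different length are compared. A gene was called where the edgeR quasi-likelihood test had a Benjamini-Hochberg adjusted p below 0.05, and all adjusted p-values below come from that fit. "Rose" and "fell" are used of called genes, and say what day 3 libraries did relative to day 0 libraries. Called genes made up 65.5% of those tested (8522 genes). Higher at day 3 were 33.1% (4304 genes) and lower were 32.4% (4218 genes). A call with at least a 2-fold change was made for 18.2% (2370 genes), with 10.8% higher (1410 genes) and 7.38% lower (960 genes). For every gene below whose values are given library by library, the 3 day 3 values lay wholly above or wholly below the 3 day 0 values. Most of these genes were chosen for large changes, so this separation follows in part from the choice. The share of all tested genes for which it holds is not given here. The counts for gene groups are to be read against these shares. Over all genes the median log2 fold change was 0.01, with quartiles at −0.34 and 0.40. When counts were scaled by library totals alone, this median moved to −0.114 and the share of calls that were higher was 38.7%, against 50.5% with TMM. Changes smaller than this shift therefore rest on the scaling.

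The size of the changes was uneven. At least 10-fold changes were called for 254 genes that rose and 58 that fell, and at least 100-fold changes for 56 and 5. The gain in reads was concentrated: the 10 genes with the largest gain in CPM held 22.8% of the summed gain, and 79 genes held 50% of it, whereas 278 genes were needed for 50% of the summed loss. The number of genes that held 50% of a library's reads was 675 to 693 at day 3 and 810 to 828 at day 0. In FPKM, mt-Co1 and Lyz2 ranked 1 and 2 in both groups. The serum amyloid gene Saa3 ranked 3 at day 3 and 8806 at day 0, B2m 4 and 21, the scavenger receptor gene Marco 9 and 183, and the smooth muscle actin gene Acta2 107 and 14. Also among the 10 largest gains in CPM were those of the ferritin gene Fth1 (12974 CPM at day 3 and 4784 at day 0), of Serpina3n (3802 CPM at day 3 and 0.342 at day 0), of Postn (5253 CPM at day 3 and 1615 at day 0) and of Col3a1. Among the 10 largest losses were those of Thbs1, Acta2 and Fn1, of matrix or contractile proteins. Others of the 10 were of neither kind: Cd36 (205 CPM at day 3 and 1452 at day 0), Gpnmb and the translation factor gene Eef1a1.

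**Figure D1:**
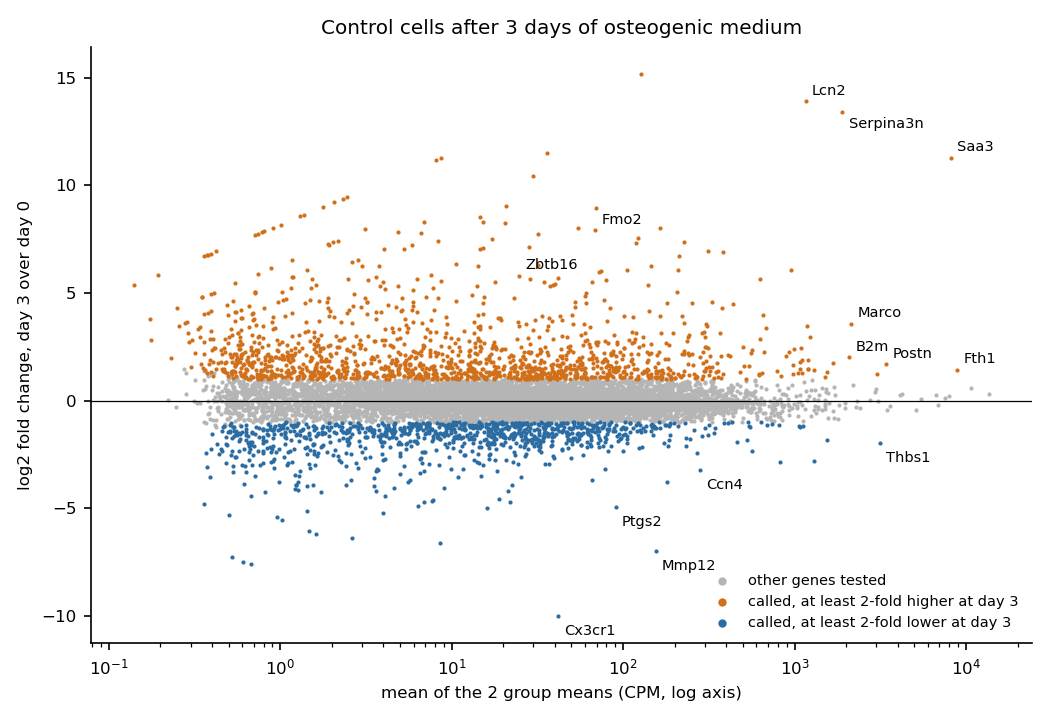
Log2 fold change of day 3 over day 0 (vertical axis) against the mean of both group means in CPM (horizontal log axis) for the 13013 tested genes, 1 point a gene. Coloured points are the 1410 genes called at least 2-fold higher and the 960 called at least 2-fold lower. Saa3, Lcn2 and Serpina3n stand out as both abundant and strongly higher at day 3.

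**Figure D2:**
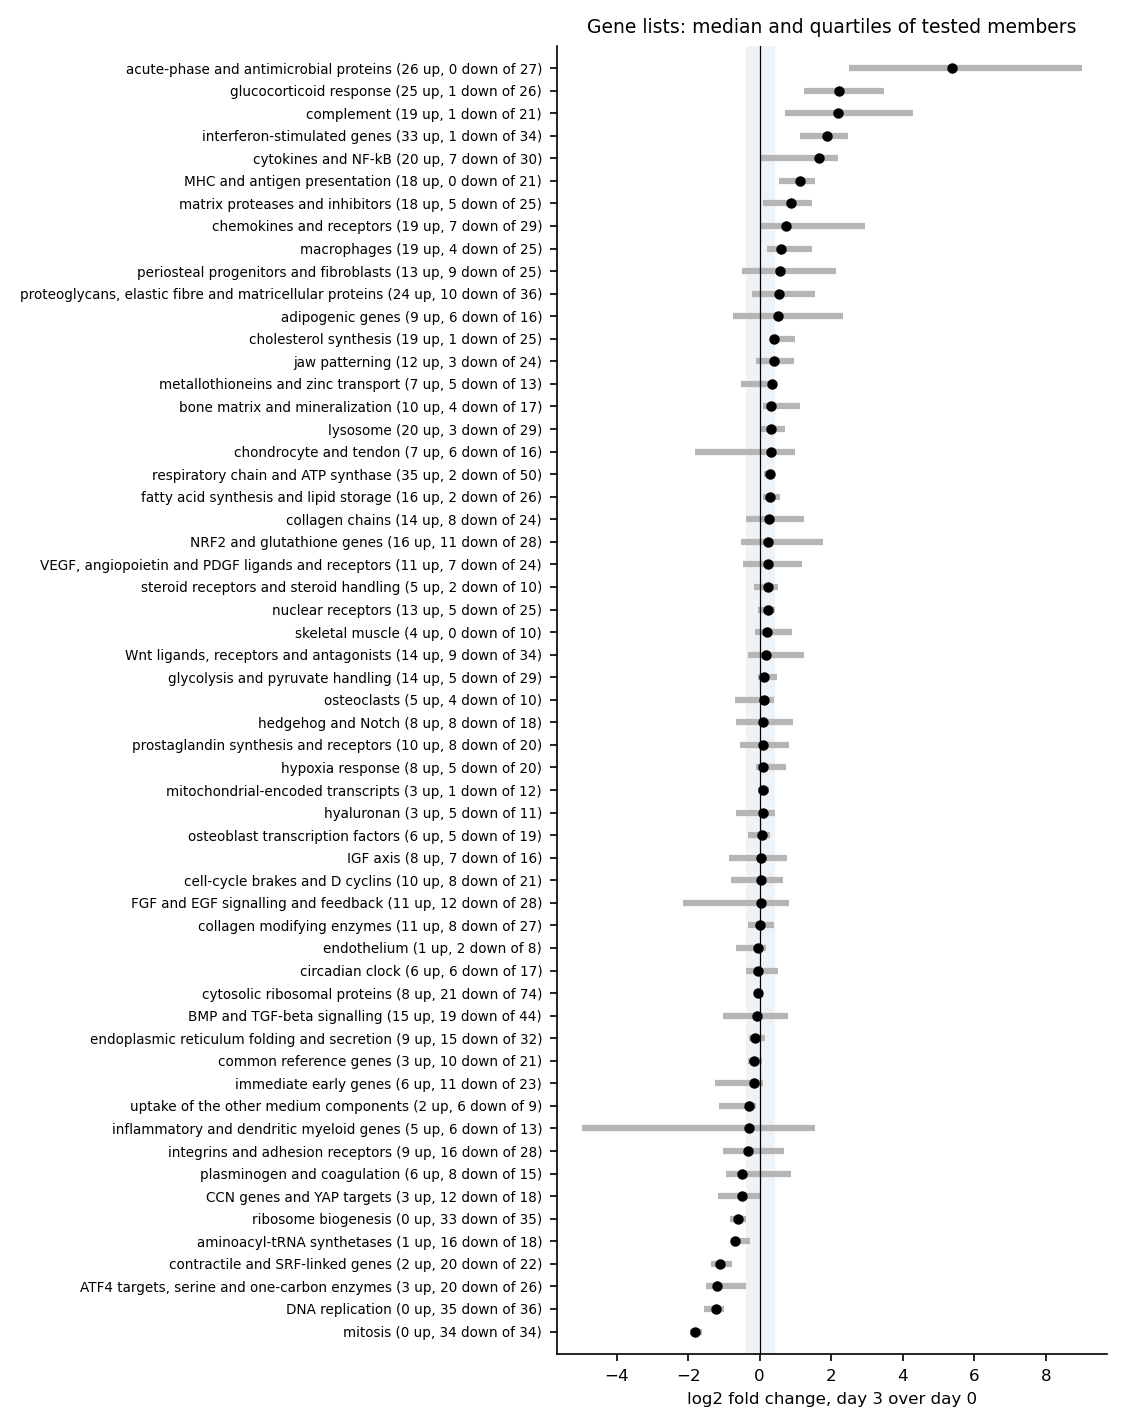
Median (point) and quartiles (bar) of the log2 fold change over the tested members of each gene list with at least 8 of them, with the number called higher and lower. The shaded band spans the quartiles of all tested genes, −0.34 to 0.40. Acute-phase, glucocorticoid, complement and interferon-stimulated genes lie to its right, and mitosis, DNA replication, ATF4-target and contractile genes to its left.

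The tissue label was checked against marker genes. The 10 markers of periosteal progenitors and fibroblasts summed to 9911 to 10150 CPM over library totals at day 3 and to 3135 to 3338 at day 0, and 6 osteoblast markers to 7518 to 8050 at day 3 and 7310 to 8209 at day 0. The osteoblast sum was almost wholly Col1a1, which fibroblasts also make. Runx2, Alpl and Ibsp were read on both days at lower levels given below, and Sp7 had 4.11 CPM at day 3 and 3.46 at day 0. Transcripts of macrophages were also abundant: their 8 markers summed to 16010 to 17830 CPM at day 3 and 12020 to 12540 at day 0. The control cultures of both days thus contained transcripts of stromal and of myeloid cells. In bulk RNA, a change in the number of cells of a type and a change in RNA per cell cannot be told apart. This touches every result below. The defining markers of 4 other kinds of cell were at or near 0: lymphocytes (0.0504 to 0.243 CPM at day 3 and 0.177 to 0.309 at day 0, with no read of Cd3e or Nkg7 on either day), erythroid cells (0.151 to 0.243 and 0.185 to 0.412 CPM, no read of Hba-a1 or Hbb-bs), epithelium and nerve (2.07 to 3.83 and 1.17 to 2.07 CPM, no read of Epcam or Krt5), and endothelium (4.98 to 5.57 CPM at day 3 and 3.95 to 5.65 at day 0). Skeletal muscle markers summed to 16.4 to 23.7 CPM at day 3 and 21.9 to 23.9 at day 0. Of the wider lymphocyte list 3 genes had enough reads to test and all 3 fell. Cd28, a T-cell co-stimulatory receptor gene, had 9 reads at day 3 and 951 at day 0, and Cd4, which some myeloid cells also express, had 0.766 CPM at day 3 and 4.10 at day 0. Transcripts of the Y chromosome were present on both days and did not keep 1 ratio: Ddx3y fell to 0.778 times its day 0 level, Eif2s3y and Uty rose 1.20-fold and 1.18-fold, the second a call lost in 5 of the 13 alternatives (library-total scaling and leaving out day 3 replicate 2 or 3 or day 0 replicate 1 or 3), and Kdm5d was not called (0.14, adjusted p = 0.092).

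**Figure D3:**
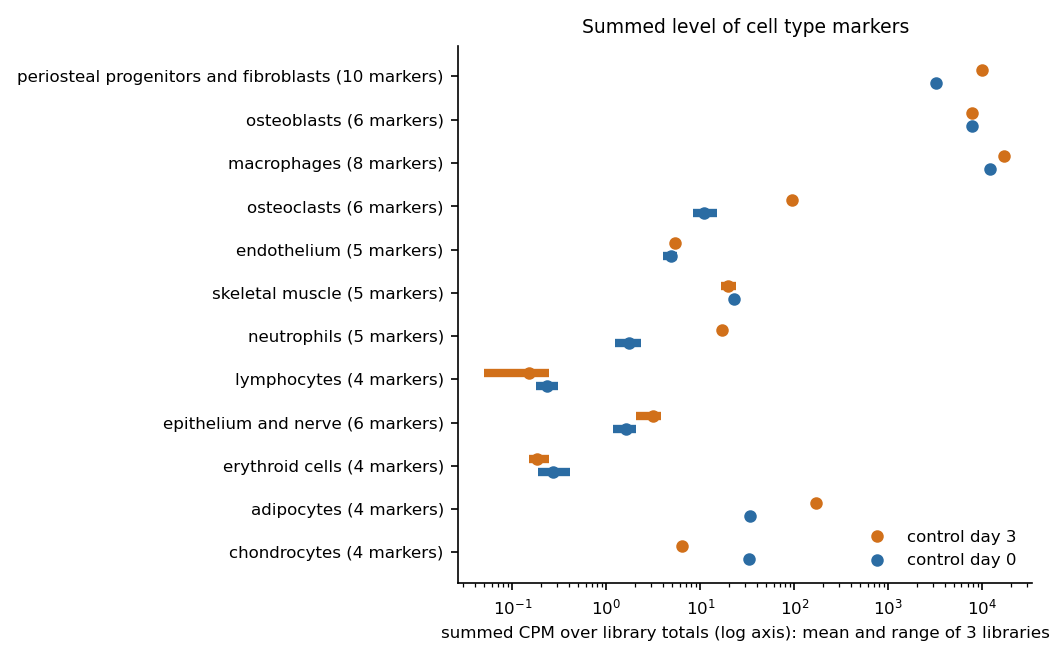
Summed CPM over library totals (horizontal log axis) of the markers of 12 cell types at day 3 and day 0; points are means of 3 libraries and bars their range. Periosteal, macrophage, osteoclast, neutrophil and adipocyte markers summed higher at day 3, and chondrocyte markers lower. With TMM-scaled CPM, 5 of the 12 sums moved. At day 3 the osteoclast sum is almost wholly Acp5, the adipocyte sum Fabp4 and the neutrophil sum S100a8. The largest part of the periosteal sum is Postn, and most of the macrophage sum is Lyz2. Of the 10 periosteal markers 6 rose and 4 fell, and of the 8 macrophage markers 6 rose and 2 fell.

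Genes of the glucocorticoid response rose almost throughout. Of 26 tested genes of the list, 25 rose and 1 fell, 21 of them rising at least 2-fold, with a median log2 fold change of 2.21. The flavin monooxygenase gene Fmo2 (ENSMUSG00000040170, chromosome 1, 162701886 to 162726295, minus strand, GRCm39) had 132, 139 and 139 CPM in the day 3 libraries and 0.778, 0.668 and 0.174 CPM in the day 0 libraries (log2 fold change 7.92 ± 0.15 SE, adjusted p = 1.39e-21). Zbtb16, which encodes the zinc-finger factor PLZF, had 47.0, 48.6 and 50.3 CPM in day 3 cells, compared with 1.12, 1.11 and 0.290 CPM in day 0 cells (log2 fold change 5.81 ± 0.17 SE, adjusted p = 6.14e-18). These 2 genes were thus near the limit of detection at day 0 and clearly expressed in every day 3 library. Hif3a, a hypoxia-inducible factor subunit, rose with a log2 fold change of 8.54 from only 4 reads over the day 0 group. Klf15, a Kruppel-like factor of metabolic control, had 17.3, 16.3 and 18.4 CPM at day 3, against 1.07, 1.06 and 1.39 CPM at day 0 (log2 fold change 3.88 ± 0.15 SE, adjusted p = 7.25e-16). Changes of widely expressed targets were smaller: the phosphatase gene Dusp1, which shuts off MAP kinases, rose 4.45-fold, the glutamine synthetase gene Glul 4.29-fold, the mTORC1 inhibitor gene Ddit4 3.94-fold and the kinase gene Sgk1 1.82-fold. The member that fell, Rgs2, a regulator of G-protein signalling, had 25.6, 23.7 and 25.6 CPM in the day 3 libraries and 60.7, 63.8 and 67.0 CPM in the day 0 libraries (log2 fold change −1.35 ± 0.07 SE, adjusted p = 7.96e-14), and was named after its values were seen.

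The receptor gene and genes that handle its ligand did not move in 1 direction. Of 10 tested genes of steroid receptors and steroid handling, 5 rose and 2 fell. Nr3c1, the glucocorticoid receptor gene, had 117, 132 and 132 CPM in day 3 cells, compared with 155, 154 and 149 CPM in day 0 cells (log2 fold change −0.27 ± 0.08 SE, adjusted p = 0.0036), a small decrease in which the groups did not overlap. Hsd11b1, whose product regenerates active glucocorticoid inside cells, had 4.95 ± 0.236 CPM at day 3 and 0.591 ± 0.369 CPM at day 0 (SD, n = 3) and rose 8.07-fold. The drug efflux pump gene Abcb1b fell to 0.569 times its day 0 level. Among the 25 nuclear receptor genes tested, 13 rose and 5 fell. The oxysterol receptor gene Nr1h3 rose 5.46-fold, the thyroid hormone receptor gene Thra 2.42-fold and the vitamin D receptor gene Vdr 1.28-fold. Pparg, the receptor that drives fat-cell differentiation, fell to 0.526 times its day 0 level.

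Glucocorticoid receptor dimers bind an inverted repeat. Its half-sites GNACA and TGTNC, 3 bases apart, were searched on both strands in the 250 bases before the RefSeq gene starts (GRCm38.p6, a build other than the files' GRCm39). A match was present in 12 of 1345 promoters of genes that rose at least 2-fold (0.892%), in 1 of 886 of genes that fell at least 2-fold (0.113%), in 0.287% of the 13238 promoters of all tested genes and in 0.387% of all 32851 promoters. Within the glucocorticoid list it occurred in 1 of 32 promoters (21 of 26 genes had one), that of Sgk1. The site is shown because it is the list's one match (chr10:21993677-21993739, plus strand), with the repeat in capitals.
Sgk1: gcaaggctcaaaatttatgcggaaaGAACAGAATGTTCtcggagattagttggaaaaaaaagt
Sgk1 itself had 315, 308 and 321 CPM at day 3, against 185, 164 and 169 CPM at day 0, so it was well expressed before induction and higher in every library after it. A match in letters does not show that the receptor binds there.

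Genes of the circadian clock, a transcriptional loop in which the PER and CRY proteins repress CLOCK and its partner BMAL1, moved in both directions. Of 17 tested, 6 rose and 6 fell, near the 33.1% and 32.4% over all tested genes. The list's median log2 fold change was −0.05. Per1, also a glucocorticoid target, had 66.2, 61.5 and 61.9 CPM in the day 3 libraries and 27.8, 29.1 and 24.6 CPM in the day 0 libraries (log2 fold change 1.21 ± 0.07 SE, adjusted p = 2.31e-12). The repressor gene Nfil3 rose 2.30-fold and Npas2, a relative of Clock, 2.67-fold. The largest decreases were those of the paired repressors Bhlhe40 and Bhlhe41. Bhlhe40 had 15.6, 15.5 and 20.0 CPM in day 3 cells, compared with 77.2, 79.5 and 79.4 CPM in day 0 cells (log2 fold change −2.22 ± 0.09 SE, adjusted p = 1.15e-15) and Bhlhe41 had 15.2, 16.8 and 14.4 CPM at day 3, against 71.5, 70.1 and 76.6 CPM at day 0 (log2 fold change −2.23 ± 0.08 SE, adjusted p = 1.23e-16). Nr1d2, which encodes REV-ERB beta, fell to 0.545 times, and Arntl, which encodes BMAL1, to 0.771 times the day 0 level, while Nr1d1 (0.07, adjusted p = 0.56) and Dbp (−0.08, adjusted p = 0.68) were not called. The E-box CACGTG, the site of CLOCK and BMAL1, was present in 30% of the list's promoters (6 of 20) and in 8.08% of those of all tested genes. The shares were 6.25% for genes that rose at least 2-fold, 7.34% for genes that fell at least 2-fold and 6.02% over all promoters. The D-box TTANNTAA was present in 10.0% of the list's promoters (2 of 20), in 3.28% of those of all tested genes and in 5.43% of all promoters.

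Most genes of a list on the handling of phosphate, pyrophosphate and vitamin C fell. Of 9 tested, 6 fell and 2 rose. Slc20a1, a sodium-phosphate importer, had 47.3, 43.3 and 44.5 CPM in the day 3 libraries and 125, 112 and 116 CPM in the day 0 libraries (log2 fold change −1.38 ± 0.06 SE, adjusted p = 1.22e-14). Ank, whose product lets ATP and with it a source of pyrophosphate out of the cell, had 21.9, 26.3 and 21.2 CPM in day 3 cells, compared with 63.2, 59.5 and 62.2 CPM in day 0 cells (log2 fold change −1.41 ± 0.08 SE, adjusted p = 9.74e-13). Enpp1, which makes pyrophosphate, an inhibitor of mineral growth, fell to 0.664 times its day 0 level. Alpl, the alkaline phosphatase that splits pyrophosphate and b-glycerophosphate, had 22.3, 26.1 and 21.1 CPM at day 3, against 13.1, 11.4 and 12.7 CPM at day 0 (log2 fold change 0.90 ± 0.10 SE, adjusted p = 4.70e-08). The vitamin C transporter gene Slc23a2 was not called (−0.11, adjusted p = 0.18). It was called lower when counts were scaled by library totals.

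Among bone matrix and mineralization genes 10 of 17 rose and 4 fell (median log2 fold change 0.33). Ibsp, which encodes bone sialoprotein, had 39.5, 42.0 and 45.0 CPM in the day 3 libraries and 6.96, 4.46 and 5.68 CPM in the day 0 libraries, so even the lowest day 3 library lay several-fold above the highest day 0 library. Mgp, which encodes matrix Gla protein, an inhibitor of calcification, had 308, 301 and 313 CPM in day 3 cells, compared with 51.8, 42.1 and 49.2 CPM in day 0 cells (log2 fold change 2.69 ± 0.07 SE, adjusted p = 6.03e-19). Omd, which encodes osteomodulin, rose 4.16-fold, and Clec11a, a growth factor of the osteoblast lineage, 3.13-fold. The 2 chains of type I collagen stood among the most abundant transcripts on both days. Col1a1 had 7806 CPM at day 3 and 7216 CPM at day 0 and was not called (0.11, adjusted p = 0.14), though it was with the 6 control libraries alone. Col1a2 rose slightly (0.22), a call lost under scaling by library totals. Genes of the mature osteoblast and osteocyte were hardly read at all. Bglap had 2 reads at day 3 and 3 at day 0, Dmp1 0 and 4, Phospho1 1 and 0, Mepe 8 and 0, and Sost none on either day. These genes were not tested. Reads of Bglap may be shared with its close relative Bglap2 (7 reads at day 3 and 6 at day 0), so its count is uncertain.

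Transcription factors of the osteoblast lineage did not stand out from all tested genes. Of 19 tested, 6 rose and 5 fell. The quartiles of their log2 fold change were −0.33 and 0.28, against −0.34 and 0.40 over all genes. With library-total scaling the list's median changed sign (0.07 and −0.05). The largest increase was that of Msx1, a homeobox factor of jaw and tooth development (7.46, 7.88 and 6.21 CPM at day 3, against 1.80, 2.01 and 2.55 CPM at day 0; log2 fold change 1.78 ± 0.18 SE, adjusted p = 1.87e-08). Its relative Msx2 had 6 reads at day 3 and 35 at day 0 and was not tested. Cebpb, a bZIP factor of several mesenchymal lineages, rose 2.77-fold. Cbfb, the partner of RUNX proteins, fell to 0.625 times its day 0 level, and Runx2 itself had 47.7, 52.3 and 48.4 CPM in the day 3 libraries and 42.1, 40.2 and 38.1 CPM in the day 0 libraries.

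Progenitor and fibroblast genes split into a group that rose and one that fell. Of 25 tested, 13 rose and 9 fell, 11 and 5 of them at least 2-fold. Vcam1, an adhesion molecule of stromal cells, had 154, 181 and 181 CPM in day 3 cells, compared with 27.3, 33.9 and 33.4 CPM in day 0 cells (log2 fold change 2.45 ± 0.08 SE, adjusted p = 4.62e-17). Ctsk, which marks periosteal stem cells and osteoclasts, rose 1.66-fold, and the homeobox gene Prrx1 1.43-fold. Grem1, a secreted BMP antagonist and marker of skeletal progenitors, had 7.24, 6.18 and 7.52 CPM at day 3, against 39.5, 41.2 and 38.9 CPM at day 0 (log2 fold change −2.52 ± 0.12 SE, adjusted p = 1.59e-14). Mcam, which encodes CD146 of perivascular stromal cells, fell to 0.125 times its day 0 level, Pdgfrb to 0.577 times and Cd200 to 0.708 times, whereas Pdgfra rose 7.86-fold. The PDGF receptor genes thus moved in opposite directions.

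Jaw patterning genes, the homeobox and related factors that give the first pharyngeal arch its identity, mostly kept or raised their level. Of 24 tested, 12 rose and 3 fell (5 at least 2-fold higher and none at least 2-fold lower). Tbx15, a T-box factor, had 42.1, 48.5 and 50.2 CPM in the day 3 libraries and 21.9, 21.9 and 17.9 CPM in the day 0 libraries (log2 fold change 1.18 ± 0.08 SE, adjusted p = 2.72e-11). The LIM-homeobox gene Lhx8 rose 2.20-fold. The jaw-forming neural crest lacks Hox transcripts, and the Hox genes named here were at 0 to 6 reads per group. Hoxa2 had 2 at day 3 and 1 at day 0, Hoxa5 5 and 6, and Hoxc6 and Hoxc8 none. Other Hox genes are not reported here.

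Cartilage and tendon genes also divided. Comp, which encodes a cartilage and tendon matrix protein, had 164, 156 and 158 CPM in day 3 cells, compared with 8.17, 6.29 and 9.5 CPM in day 0 cells (log2 fold change 4.32 ± 0.11 SE, adjusted p = 2.69e-19), and Sox5 had 11.4 ± 0.772 CPM at day 3 and 0.551 ± 0.229 CPM at day 0 (SD, n = 3) and rose 20.9-fold. Sox9, the master factor of cartilage, rose 2.42-fold. The cartilage collagen gene Col2a1 had 6.53, 5.87 and 6.46 CPM at day 3, against 27.8, 31.3 and 30.4 CPM at day 0 (log2 fold change −2.25 ± 0.10 SE, adjusted p = 1.65e-14), and Acan, which encodes aggrecan, had 1 read at day 3 and 56 at day 0, a ratio of 0.0185 with a 95% counting interval of 0.00046 to 0.107. Sox5 and Sox9 thus rose while Col2a1 and Acan fell. In the whole list 7 of 16 rose and 6 fell.

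Collagen chains changed in composition rather than in one direction: 14 of 24 rose and 8 fell, and together they took 3.29% to 3.46% of reads at day 3 and 2.92% to 3.12% at day 0. Col3a1, of the fibrils of loose connective tissue, had 4360.1, 4112 and 4182 CPM in the day 3 libraries and 1760.2, 1827 and 1819 CPM in the day 0 libraries (log2 fold change 1.23 ± 0.05 SE, adjusted p = 1.79e-15). Col6a2, of the microfibrils around cells, rose 2.57-fold, Col14a1, which binds fibril surfaces, 4.4-fold and Col27a1 3.71-fold. Col15a1, a basement-membrane collagen, fell to 0.214 times its day 0 level. Among the enzymes that modify collagen, for which ascorbic acid is a cofactor in part, 11 of 27 rose and 8 fell (10 and 12 with library-total scaling, where the median turned from 0.01 to −0.11). Loxl2, a crosslinking lysyl oxidase, had 47.9, 46.4 and 40.3 CPM in day 3 cells, compared with 201, 208 and 198 CPM in day 0 cells (log2 fold change −2.17 ± 0.08 SE, adjusted p = 9.83e-17). Lox, its most abundant relative, had 5607 CPM at day 3 and 5323 CPM at day 0 and was not called (0.07, adjusted p = 0.24). Serpinh1, the collagen chaperone HSP47, fell to 0.620 times its day 0 level. The prolyl hydroxylase genes moved both ways, with P4ha3 1.79-fold higher and P4ha1 at 0.747 times the day 0 level. The C-proteinase enhancer gene Pcolce rose 1.91-fold.

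Of 36 genes of proteoglycans, elastic fibres and matricellular proteins, 24 rose and 10 fell. Their summed share of reads was 2.09% to 2.15% at day 3 and 2.42% to 2.54% at day 0. Prelp, a leucine-rich proteoglycan that anchors basement membranes, had 844, 865 and 856 CPM at day 3, against 146, 154 and 150.3 CPM at day 0 (log2 fold change 2.51 ± 0.05 SE, adjusted p = 1.17e-20). Fmod, which encodes fibromodulin, rose 2.39-fold, the microfibril gene Mfap2 4.56-fold and the large proteoglycan gene Vcan 2.33-fold. The 2 most abundant members that fell were Fn1, which encodes fibronectin (4319.7, 4341 and 4282 CPM in the day 3 libraries and 5898, 6138 and 5525 CPM in the day 0 libraries; log2 fold change −0.44 ± 0.05 SE, adjusted p = 1.31e-07), and Thbs1.

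Genes of the contractile cytoskeleton fell together. Of 22 tested, 20 fell and 2 rose, with a median log2 fold change of −1.12, and their summed share of reads was 0.799% to 0.820% at day 3 and 1.66% to 1.72% at day 0. Actg2, a smooth muscle actin, had 34.7, 29.6 and 32.6 CPM in day 3 cells, compared with 144, 130.2 and 138 CPM in day 0 cells (log2 fold change −2.09 ± 0.08 SE, adjusted p = 2.68e-16). Zyx, which encodes the focal-adhesion protein zyxin, had 115, 102 and 109.6 CPM at day 3, against 373, 374 and 321 CPM at day 0 (log2 fold change −1.71 ± 0.08 SE, adjusted p = 1.26e-14). The calponin gene Cnn1 fell to 0.295 times, the filamin gene Flna to 0.570 times, and the cytoplasmic actin genes Actg1 and Actb to 0.451 times and 0.736 times their day 0 level. Those that rose were Des, the muscle intermediate filament gene (2.12-fold), and Mylk, the myosin light chain kinase gene (2.05-fold), the second named after its values were seen.

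Matricellular CCN genes and other targets of the mechanosensitive co-activators YAP and TAZ moved mostly down, with 12 of 18 lower and 3 higher. Ccn4, a secreted protein of bone-forming cells, had 53.8, 53.0 and 54.6 CPM in the day 3 libraries and 506, 505 and 506 CPM in the day 0 libraries (log2 fold change −3.23 ± 0.05 SE, adjusted p = 2.77e-22). Ccn2, which encodes connective tissue growth factor, had 203, 181 and 181 CPM in day 3 cells, compared with 969, 900 and 939 CPM in day 0 cells (log2 fold change −2.31 ± 0.06 SE, adjusted p = 1.38e-18), and Ccn1 fell to 0.389 times its day 0 level. Ccn3 went the other way (23.1, 26.4 and 19.3 CPM at day 3, against 4.52, 6.35 and 4.63 CPM at day 0; log2 fold change 2.16 ± 0.13 SE, adjusted p = 3.72e-12), as did Ccn5 (1.62-fold). Members of the CCN family thus differed in direction, also under each scaling. Of 28 integrins and adhesion receptors, 16 fell and 9 rose. The laminin receptor subunit gene Itga6 fell to 0.258 times and Itga4 to 0.228 times the day 0 level, while Itga10, a collagen receptor subunit of cartilage and periosteum, had 24.1, 25.9 and 28.2 CPM in the day 3 libraries and 3.75, 1.84 and 1.51 CPM in the day 0 libraries (log2 fold change 3.42 ± 0.18 SE, adjusted p = 2.26e-13).

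Of 25 matrix proteases and their inhibitors, 18 rose and 5 fell. The collagenase genes Mmp13 and Mmp8 rose 5.69-fold and 8.91-fold. Mmp13 had 496, 519 and 509 CPM in day 3 cells, compared with 80.1, 97.9 and 90.2 CPM in day 0 cells. The stromelysin gene Mmp3 had 12.2 ± 1.26 CPM at day 3 and 0.250 ± 0.386 CPM at day 0 (SD, n = 3), and Adam8 rose 2.74-fold. Mmp12, the macrophage elastase gene, went the other way and changed more than any of these, with 2.45, 2.94 and 1.86 CPM at day 3, against 262, 342 and 320.1 CPM at day 0 (log2 fold change −6.97 ± 0.14 SE, adjusted p = 1.10e-20). The inhibitors did not move as one: Timp1 rose 1.77-fold, and Timp3, which stays bound to the matrix, had 16.4, 15.7 and 15.7 CPM in the day 3 libraries and 135, 153 and 136 CPM in the day 0 libraries (log2 fold change −3.15 ± 0.07 SE, adjusted p = 7.84e-20). In the plasminogen system, Plau, which encodes the activator urokinase, had 31.9, 35.3 and 31.1 CPM in day 3 cells, compared with 159, 167 and 173 CPM in day 0 cells (log2 fold change −2.34 ± 0.06 SE, adjusted p = 1.03e-18). The crosslinking factor gene F13a1, which macrophages also express, had 1265, 1265 and 1182 CPM at day 3, against 133, 102 and 122 CPM at day 0 (log2 fold change 3.38 ± 0.08 SE, adjusted p = 1.89e-19). Of 11 genes of hyaluronan synthesis, turnover and binding 3 rose and 5 fell, and their median changed sign with the scaling (0.08 and −0.04). Vcan, which binds hyaluronan, rose, as given above, while the synthase gene Has2 fell to 0.239 times and the receptor gene Cd44 to 0.564 times the day 0 level.

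Genes of cell division fell almost without exception. Of 36 DNA replication genes 35 fell and none rose, and all 34 mitosis genes fell, each at least 2-fold. The medians were −1.22 and −1.82 on the log2 scale. The exception was E2f1 (−0.01, adjusted p = 0.9), a factor that drives S-phase genes, and Fen1 had too few reads to test. The range within the mitosis list was narrow, from Kif2c (−1.31) to Mki67 (−2.42). Uhrf1, which couples DNA methylation to replication, had 25.8, 19.1 and 22.6 CPM in the day 3 libraries and 102, 101 and 98.5 CPM in the day 0 libraries (log2 fold change −2.17 ± 0.08 SE, adjusted p = 4.87e-16). Kif23, a kinesin of cytokinesis, had 15.2, 14.5 and 15.2 CPM in day 3 cells, compared with 69.6, 78.4 and 70.6 CPM in day 0 cells (log2 fold change −2.28 ± 0.08 SE, adjusted p = 7.68e-17), and the kinetochore gene Ndc80 fell to 0.229 times its day 0 level. Transcripts of these genes had not vanished: Pcna, the replication clamp gene, still had 97.3, 94.4 and 89.7 CPM at day 3, against 208, 201 and 221 CPM at day 0. The list of brakes on the cycle and D cyclins did not move as one (10 of 21 rose and 8 fell). The kinase inhibitor genes of the Ink4 locus rose: Cdkn2b had 38.8, 42.1 and 41.6 CPM in the day 3 libraries and 14.0, 12.9 and 13.8 CPM in the day 0 libraries (log2 fold change 1.59 ± 0.08 SE, adjusted p = 1.65e-13) and Cdkn2a rose 3.52-fold. Another inhibitor of that family, Cdkn2c, fell to 0.408 times, the cyclin gene Ccnd1 to 0.491 times and Gadd45a to 0.398 times the day 0 level. Cdkn1a, the p53 target p21, rose 1.32-fold.

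Many G2 and M-phase genes carry a cell-cycle homology region (CHR) near their start, the letters TTTGAA. It was present in 11 of 31 promoters of the mitosis list (35.5%) and in 10.8% of those of all tested genes. The shares were 13.5% for genes that rose at least 2-fold, 14.3% for genes that fell at least 2-fold and 16.0% over all promoters, tested or not. The 3 stretches shown are from members that stand for mitotic entry, exit and proliferation in general, with the CHR in capitals (chr10:69352913-69353008, minus strand; chr4:118437344-118437386, minus strand; chr7:135716447-135716520, minus strand; RefSeq, GRCm38.p6).
Cdk1: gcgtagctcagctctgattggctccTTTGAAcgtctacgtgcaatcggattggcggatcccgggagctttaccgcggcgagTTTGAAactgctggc
Cdc20: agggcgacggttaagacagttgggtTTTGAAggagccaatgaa
Mki67: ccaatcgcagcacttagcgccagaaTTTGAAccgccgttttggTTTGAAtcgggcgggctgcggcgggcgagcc
The log2 fold changes of the 3 genes were −1.41, −1.85 and −2.42. Cdk1 and Cdc20 were chosen for these stretches after their values were seen.

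Genes that make ribosomes and charge tRNAs also fell, by smaller medians. Of 35 ribosome biogenesis genes 33 fell and none rose (median −0.60), and of 18 aminoacyl-tRNA synthetase genes 16 fell and 1 rose (median −0.69). Nop56, a core protein of the box C/D particles that methylate ribosomal RNA, had 54.6, 48.9 and 53.4 CPM in day 3 cells, compared with 128, 119 and 126 CPM in day 0 cells (log2 fold change −1.25 ± 0.06 SE, adjusted p = 2.53e-14). Ncl, which encodes nucleolin, fell to 0.497 times its day 0 level. Gars, the glycyl-tRNA synthetase gene, had 180.1, 170.2 and 164 CPM at day 3, against 332, 318 and 330.2 CPM at day 0 (log2 fold change −0.93 ± 0.06 SE, adjusted p = 2.24e-12). Qars, the synthetase gene that rose (1.23-fold), was named after its values were seen. The ribosomal proteins themselves moved little: of 74 genes 8 rose and 21 fell, none of them 2-fold, with a median of −0.06. With library-total scaling 2 rose and 43 fell, so their direction rests on the scaling. Myc, a factor that promotes ribosome production, had 45.3, 42.7 and 46.5 CPM in the day 3 libraries and 85.2, 85.6 and 85.7 CPM in the day 0 libraries (log2 fold change −0.93 ± 0.06 SE, adjusted p = 7.74e-12).

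Targets of the amino-acid stress factor ATF4, among them the enzymes that make serine and the mitochondrial one-carbon enzymes, fell in 20 of 26 cases (15 at least 2-fold), and 3 rose. Psat1, an enzyme of serine synthesis, had 69.2, 65.2 and 72.6 CPM in day 3 cells, compared with 309.8, 282 and 301 CPM in day 0 cells (log2 fold change −2.11 ± 0.06 SE, adjusted p = 6.09e-18). Aldh1l2, of mitochondrial folate metabolism, fell to 0.198 times and the amino acid transporter gene Slc7a5 to 0.229 times the day 0 level. Slc7a11, the cystine transporter gene, went against the list, with 246, 306 and 258 CPM at day 3, against 60.0, 57.2 and 49.0 CPM at day 0 (log2 fold change 2.28 ± 0.09 SE, adjusted p = 1.15e-15). The amino acid response element TGATGNAA was present in 6 of 29 promoters of the list (20.7%), in 2.09% of those of all tested genes and in 3.45% of all promoters, and in 3.35% and 2.14% of those of genes that rose and that fell at least 2-fold. The promoters of Slc7a11 and of the asparagine synthetase gene Asns are shown because the genes moved in opposite directions although both hold the element, in capitals (chr3:50443628-50443704, minus strand; chr6:7693210-7693257, minus strand; RefSeq, GRCm38.p6).
Slc7a11: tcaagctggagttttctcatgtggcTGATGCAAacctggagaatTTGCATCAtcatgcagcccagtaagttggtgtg
Asns: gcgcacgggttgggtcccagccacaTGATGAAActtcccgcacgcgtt
Asns, named after its values were seen, had 70.0, 74.4 and 74.4 CPM in the day 3 libraries and 192, 186 and 205 CPM in the day 0 libraries (log2 fold change −1.41 ± 0.06 SE, adjusted p = 1.35e-15). Genes of folding and secretion in the endoplasmic reticulum changed less than 2-fold in every case, with 9 of 32 higher and 15 lower. Calr, which encodes calreticulin, rose 1.22-fold, and Kdelr3, a retrieval receptor gene, fell to 0.561 times its day 0 level.

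**Figure D4:**
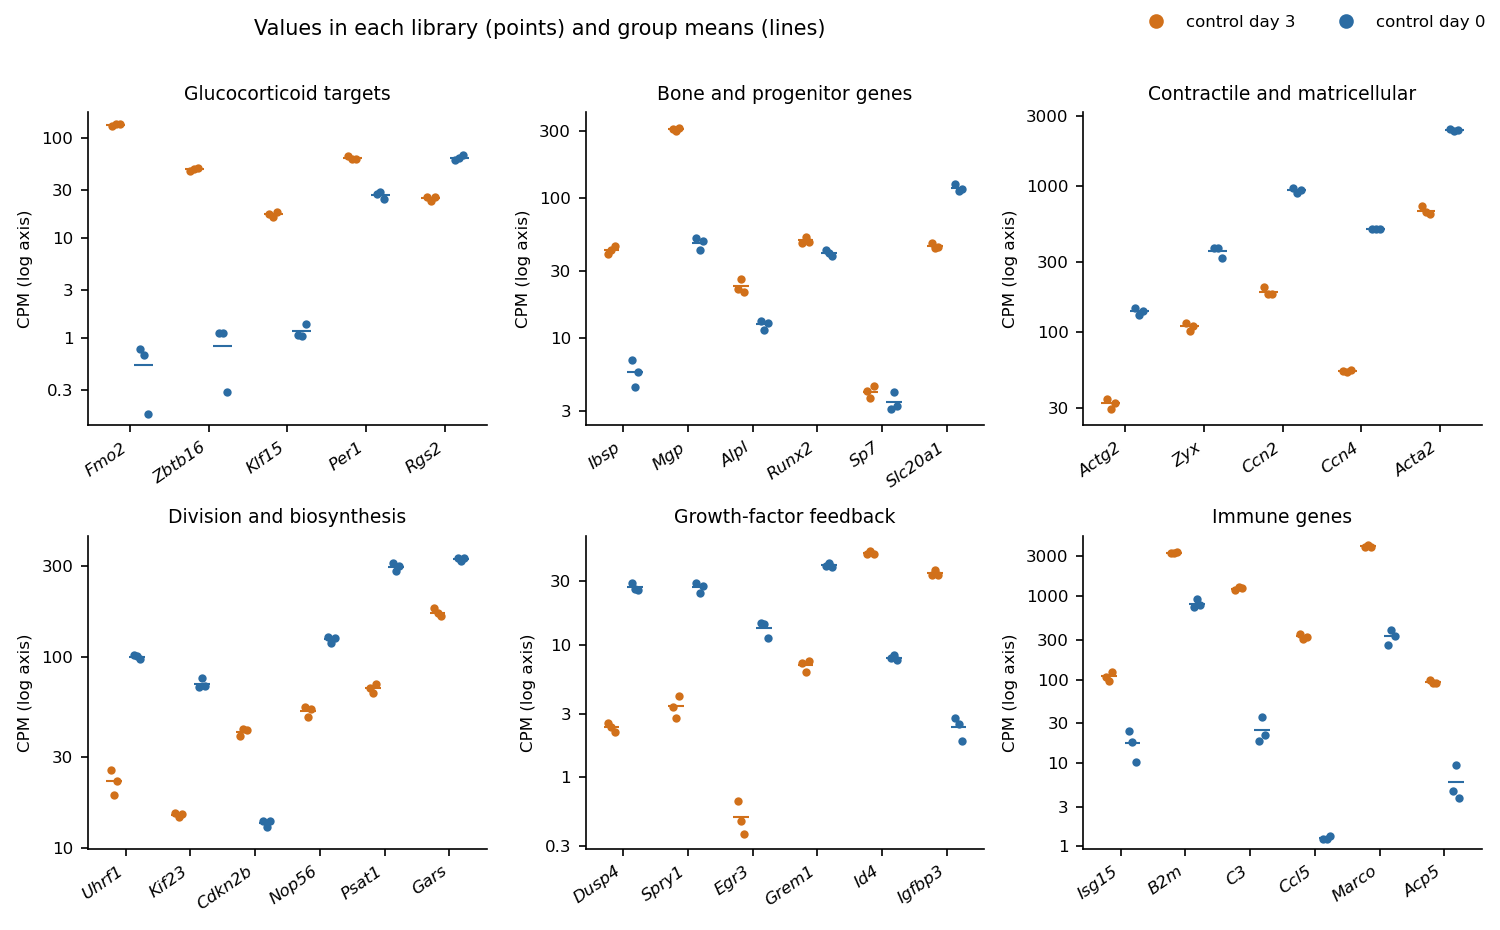
CPM (log axis) in each of the 3 day 3 and 3 day 0 libraries for 34 genes of 6 kinds; points are libraries and lines group means. For every gene shown except Sp7 the 3 day 3 libraries lie wholly above or below the 3 day 0 libraries. Most were picked from called genes, so this separation follows in part from the choice.

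Cholesterol synthesis genes rose in 19 of 25 cases and fell in 1, by a median of 0.41 (log2). Tm7sf2, a sterol reductase gene, had 18.1, 19.1 and 20.5 CPM in day 3 cells, compared with 6.32, 5.90 and 5.85 CPM in day 0 cells (log2 fold change 1.67 ± 0.11 SE, adjusted p = 6.98e-12), and Mvd, of the mevalonate pathway, rose 2.40-fold. The member that fell was Insig1, which restrains the pathway (−0.21), while the early synthase gene Hmgcs1 was not called (0.11, adjusted p = 0.095). Of 26 genes of fatty acid synthesis and storage 16 rose and 2 fell (12 and 5 with library-total scaling). The desaturase gene Scd1 rose 2.02-fold and the lipase gene Pnpla2 1.97-fold. Genes of the fat-cell programme divided. Apod, which encodes a lipid-binding lipocalin, had 199, 197 and 230.3 CPM at day 3, against 3.89, 2.01 and 3.42 CPM at day 0 (log2 fold change 6.05 ± 0.14 SE, adjusted p = 5.02e-20), and Fabp4 rose 5.42-fold. Adipoq, which encodes adiponectin, had 156 reads at day 3 and 6 at day 0. Lpl, which encodes lipoprotein lipase and is also made by macrophages, had 716, 647 and 576 CPM in the day 3 libraries and 1317, 1631 and 1481 CPM in the day 0 libraries (log2 fold change −1.19 ± 0.08 SE, adjusted p = 1.05e-11), and the fatty acid translocase gene Cd36 had 238, 198 and 179 CPM in day 3 cells, compared with 1385, 1518 and 1452 CPM in day 0 cells (log2 fold change −2.82 ± 0.09 SE, adjusted p = 1.77e-17). The fat-cell marker genes Plin1 and Cidec had 1 read each at day 3 and none at day 0.

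In energy metabolism, regulators of pyruvate dehydrogenase and of phosphofructokinase rose. Pdk4, whose product inhibits pyruvate dehydrogenase, had 343, 346 and 367 CPM at day 3, against 41.9, 39.7 and 39.4 CPM at day 0, and Pdp1, whose product reactivates it, rose 2.53-fold. Pfkfb3, which makes the activator of phosphofructokinase, had 406, 436 and 451 CPM in the day 3 libraries and 55.7, 53.8 and 48.2 CPM in the day 0 libraries (log2 fold change 3.03 ± 0.07 SE, adjusted p = 6.91e-20). Of 29 genes of glycolysis and pyruvate handling 14 rose and 5 fell (10 and 9 with library-total scaling), and the glycolytic enzyme genes Pgk1 (0.04, adjusted p = 0.55) and Gapdh (−0.06, adjusted p = 0.42) were not called. Of 50 nuclear genes of the respiratory chain and ATP synthase 35 rose and 2 fell, by a median of 0.29 (24 and 6 with library-total scaling). Ndufb5, a complex I subunit gene, rose 1.52-fold and Cox8a 1.46-fold. Of 12 transcripts of the mitochondrial genome 3 rose and 1 fell, and their median changed sign with the scaling (0.09 and −0.03).

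Antioxidant genes rose in 16 of 28 cases and fell in 11. Gpx3, the secreted glutathione peroxidase gene, had 2231, 2116 and 2175 CPM in day 3 cells, compared with 196, 183 and 201 CPM in day 0 cells (log2 fold change 3.49 ± 0.06 SE, adjusted p = 8.36e-22). Sod2, which encodes the mitochondrial superoxide dismutase, rose 7.87-fold, the retinal dehydrogenase gene Aldh1a1 23.2-fold and the heme oxygenase gene Hmox1 3.39-fold. Nqo1 and Txnrd1, textbook targets of the factor NRF2, were at 0.421 times and 0.451 times the day 0 level. They were named after their values were seen. The metallothionein gene Mt1, which binds zinc and responds to glucocorticoids, had 231, 208 and 231 CPM at day 3, against 36.3, 39.3 and 36.6 CPM at day 0 (log2 fold change 2.58 ± 0.09 SE, adjusted p = 5.77e-17), and the zinc importer gene Slc39a14 rose 4.54-fold. Mt2 had 21 reads at day 3 and none at day 0 and was not tested. In the hypoxia list 8 of 20 rose and 5 fell. Epas1, which encodes HIF-2 alpha, had 255, 263 and 283 CPM in the day 3 libraries and 14.3, 14.6 and 15.2 CPM in the day 0 libraries (log2 fold change 4.18 ± 0.07 SE, adjusted p = 2.35e-22), and Vegfa, a target of hypoxia-inducible factors, had 34.5, 34.8 and 36.2 CPM in day 3 cells, compared with 105, 109 and 106 CPM in day 0 cells (log2 fold change −1.61 ± 0.06 SE, adjusted p = 8.09e-16).

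Genes that growth-factor signals act on through the ERK pathway moved both ways. Among immediate early genes, Egr3 and Egr2 fell most: Egr3 had 0.653, 0.464 and 0.373 CPM at day 3, against 14.4, 14.2 and 11.3 CPM at day 0 (log2 fold change −4.72 ± 0.22 SE, adjusted p = 2.43e-14), Egr2 fell to 0.0853 times and Egr1 to 0.158 times the day 0 level. Atf3, a stress-induced factor, had 8.11, 8.35 and 9.44 CPM in the day 3 libraries and 63.6, 65.1 and 68.2 CPM in the day 0 libraries (log2 fold change −2.93 ± 0.08 SE, adjusted p = 3.35e-18). Fos, of the same rapid class, rose 1.66-fold, and Klf6 was not called (−0.04, adjusted p = 0.62). In the list of immediate early genes 11 of 23 fell and 6 rose (15 and 5 with library-total scaling). In the list of FGF and EGF signalling and feedback 11 of 28 rose and 12 fell, against 33.1% and 32.4% over all tested genes. The list's median changed sign with the scaling (0.03 and −0.09). Some of its feedback inhibitors fell. The phosphatase gene Dusp4 had 2.56, 2.37 and 2.17 CPM in day 3 cells, compared with 29.3, 26.2 and 26.1 CPM in day 0 cells (log2 fold change −3.52 ± 0.13 SE, adjusted p = 2.91e-16), the Sprouty gene Spry1 had 3.38, 2.78 and 4.10 CPM at day 3, against 29.3, 24.5 and 27.9 CPM at day 0 (log2 fold change −3.0 ± 0.13 SE, adjusted p = 5.99e-15), and Etv4, an ETS transcription factor gene downstream of FGF, fell to 0.153 times its day 0 level. Spred1, another inhibitor of the pathway, was not called (0.07, adjusted p = 0.35). Of the EGF-family ligands, Hbegf had 2.29, 2.37 and 1.99 CPM in the day 3 libraries and 46.7, 36.2 and 38.4 CPM in the day 0 libraries (log2 fold change −4.18 ± 0.14 SE, adjusted p = 3.26e-17). Receptor genes of the same list, named after their values were seen, moved the other way: Egfr rose 2.16-fold and Fgfr1 1.44-fold.

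In the BMP and TGF-beta pathway, where secreted antagonists bind the ligands and Id genes are the immediate targets of BMP, 15 of 44 genes rose and 19 fell. Over all tested genes 33.1% rose and 32.4% fell. The ligand gene Bmp2 had 0.548 ± 0.171 CPM at day 3 and 1.40 ± 0.0439 CPM at day 0 (SD, n = 3) and fell, and Bmp4 was not called (0.29, adjusted p = 0.051), although it was in 6 of the 13 other fits. The antagonists split: Chrdl1 had 79.7, 93.4 and 78.5 CPM in day 3 cells, compared with 11.3, 9.47 and 11.1 CPM in day 0 cells (log2 fold change 2.98 ± 0.09 SE, adjusted p = 1.62e-17), opposite to Grem1. The co-receptor gene Tgfbr3 rose 6.36-fold. Among the targets, Id4 had 48.1, 51.0 and 48.0 CPM at day 3, against 7.93, 8.35 and 7.59 CPM at day 0 (log2 fold change 2.62 ± 0.08 SE, adjusted p = 2.90e-17) and Id3 rose 2.55-fold. Id1 (−0.07, adjusted p = 0.65) was not called and Id2 fell to 0.531 times its day 0 level, both named after their values were seen.

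The Wnt list held 14 genes that rose and 9 that fell among 34 tested, and those that changed at least 2-fold all rose (11 genes). The receptor tyrosine kinase gene Ror1, a receptor for Wnt5a, had 88.5, 97.6 and 97.7 CPM in the day 3 libraries and 8.12, 7.30 and 8.75 CPM in the day 0 libraries (log2 fold change 3.55 ± 0.09 SE, adjusted p = 1.95e-19), whereas Wnt5a had 20.9, 21.4 and 24.8 CPM in day 3 cells, compared with 46.0, 46.6 and 39.9 CPM in day 0 cells (log2 fold change −0.98 ± 0.08 SE, adjusted p = 4.95e-10). The secreted antagonist genes Sfrp1, Sfrp2 and Dkk2 rose 5.33-fold, 3.88-fold and 2.83-fold. Antagonist Dkk3 fell to 0.740 times its day 0 level, and no read of Dkk1 was present on either day. In the hedgehog and Notch list as many genes rose as fell (8 each of 18). Gas1 and Boc, co-receptors of hedgehog ligands, rose 15.4-fold and 2.91-fold, and Hhip, which captures the ligands, fell to 0.160 times its day 0 level. Gas1 had 206, 199 and 167 CPM at day 3, against 12.7, 11.6 and 12.6 CPM at day 0. The Notch target gene Hes1 had 2.29, 2.94 and 2.92 CPM in the day 3 libraries and 16.0, 17.9 and 15.9 CPM in the day 0 libraries (log2 fold change −2.61 ± 0.17 SE, adjusted p = 1.07e-11).

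Of the IGF axis 8 of 16 genes rose and 7 fell. The ligand gene Igf1 had 198, 198 and 175 CPM in day 3 cells, compared with 710.2, 736 and 737 CPM in day 0 cells (log2 fold change −1.93 ± 0.06 SE, adjusted p = 7.24e-18). The binding protein genes Igfbp3, Igfbp6 and Igfbp4, whose products hold the ligand outside the cell, rose 14.4-fold, 2.84-fold and 2.01-fold. Igfbp3 had 33.8, 36.8 and 33.6 CPM at day 3, against 2.77, 2.51 and 1.85 CPM at day 0. In the vascular list, the lymphatic growth factor gene Vegfd had 209, 214 and 216 CPM in the day 3 libraries and 14.1, 12.6 and 17.1 CPM in the day 0 libraries (log2 fold change 3.87 ± 0.08 SE, adjusted p = 1.05e-20) and the TIE2 ligand gene Angpt1 rose 8.89-fold. Pdgfb fell to 0.158 times its day 0 level. The VEGF ligand genes therefore moved in opposite directions, Vegfd up and Vegfa down.

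Of all lists, that of acute-phase and antimicrobial proteins had the highest median log2 fold change. Acute-phase and antimicrobial proteins, which liver and stromal cells secrete under inflammatory cytokines, rose in 26 of 27 cases with none lower, and took 2.65% to 2.77% of all reads at day 3 against 0.103% to 0.106% at day 0. Their median log2 fold change of 5.38 was the same with the 3 members without a day 0 read set at their lower bound. Complement genes rose in 19 of 21 cases and fell in 1. C3, the central component, had 1176, 1272 and 1252 CPM in day 3 cells, compared with 18.3, 35.2 and 21.4 CPM in day 0 cells (log2 fold change 5.63 ± 0.14 SE, adjusted p = 2.57e-19). Inhibitors of the cascade were among those that rose: Cd55, which breaks up the convertases on cells, had 252, 315 and 295 CPM at day 3, against 2.58, 4.01 and 4.87 CPM at day 0 (log2 fold change 6.25 ± 0.13 SE, adjusted p = 7.17e-21), and the clusterin gene Clu rose 46.0-fold. In the list of MHC and antigen presentation, class I and class II together, 18 of 21 genes rose and none fell. B2m, the shared light chain of class I, had 3277, 3297 and 3432 CPM in the day 3 libraries and 734, 931 and 786 CPM in the day 0 libraries (log2 fold change 2.03 ± 0.07 SE, adjusted p = 5.51e-17), and H2-T23 rose 5.92-fold. Reads of the Serpina3, Saa, Ly6, Slfn, Gbp, Ifit, H2, Bglap, Hba and Hbb families may be shared between close relatives. Single values there are uncertain, also those at or near 0.

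Interferon-stimulated genes, which the factor complex ISGF3 switches on after type I interferon, rose in 33 of 34 cases, 26 of them at least 2-fold. Isg15, a ubiquitin-like protein, had 108, 97 and 124 CPM in day 3 cells, compared with 24.4, 18 and 10.3 CPM in day 0 cells (log2 fold change 2.62 ± 0.16 SE, adjusted p = 2.08e-12). Oasl1 rose 12.8-fold, the nucleic acid sensor gene Zbp1 10.7-fold and the guanylate-binding protein gene Gbp3 8.32-fold. The member that fell, Ifi27, named after its values were seen, was at 0.483 times its day 0 level. The interferon gene Ifnb1 had 2 reads at day 3 and none at day 0. The core of the ISGF3 site, GAAA repeated after 2 bases of any kind, was searched on both strands and was present in 11 of 30 promoters of the list (36.7%), in 6.47% of promoters of all genes that rose at least 2-fold, in 1.81% of those that fell at least 2-fold, in 2.79% of those of all tested genes and in 2.98% of all 32851. Sites that overlap each other were counted as 1 promoter. The 3 stretches shown are from genes of the list that differ in how the cores are arranged, in capitals and, for Ifit1, read from the other strand (chr4:156200850-156200921, minus strand; chr8:71537562-71537627, minus strand; chr19:34640760-34640838, plus strand; RefSeq, GRCm38.p6).
Isg15: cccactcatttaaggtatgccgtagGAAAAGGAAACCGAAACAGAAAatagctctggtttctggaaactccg
Bst2: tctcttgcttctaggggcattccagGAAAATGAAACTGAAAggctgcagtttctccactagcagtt
Ifit1: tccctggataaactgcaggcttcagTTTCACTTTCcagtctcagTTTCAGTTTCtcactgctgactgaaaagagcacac
Bst2 had 494, 432 and 518 CPM at day 3, against 110.3, 110.2 and 84.1 CPM at day 0 (log2 fold change 2.24 ± 0.09 SE, adjusted p = 9.15e-16).

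Chemokine and cytokine genes moved in both directions. Of 29 chemokine genes and receptors 19 rose and 7 fell. Ccl5 had 351, 308 and 328 CPM in the day 3 libraries and 1.22, 1.23 and 1.33 CPM in the day 0 libraries (log2 fold change 8.03 ± 0.13 SE, adjusted p = 2.35e-22) and the interferon-induced Cxcl9 had 109 ± 19.8 CPM at day 3 and 0.399 ± 0.229 CPM at day 0 (SD, n = 3). The monocyte chemokine gene Ccl2 rose 1.62-fold. All 7 that fell did so at least 2-fold. Cx3cr1, the fractalkine receptor gene of monocytes and tissue macrophages, had 4 reads at day 3 and 4665 at day 0, so it was almost unread in every day 3 library and moderately expressed in every day 0 library (0, 0.206 and 0 CPM in day 3 cells, compared with 87.3, 83.9 and 79.1 CPM in day 0 cells). Of 30 cytokine and NF-kB genes 20 rose and 7 fell. Il33, an alarmin gene, had 19.9, 19.1 and 23.9 CPM at day 3, against 0.389, 0.111 and 0.232 CPM at day 0 (log2 fold change 6.34 ± 0.21 SE, adjusted p = 3.34e-17), while its receptor gene Il1rl1 had 3.16, 4.64 and 4.35 CPM in the day 3 libraries and 54.7, 39.7 and 45.8 CPM in the day 0 libraries (log2 fold change −3.53 ± 0.13 SE, adjusted p = 5.97e-16). Nfkbia, the NF-kB inhibitor that glucocorticoids also raise, rose 4.4-fold. Among the genes that govern osteoclasts, Tnfsf11, which encodes RANKL, had 27.6, 29.9 and 34.5 CPM in day 3 cells, compared with 4.43, 4.07 and 5.45 CPM in day 0 cells (log2 fold change 2.72 ± 0.12 SE, adjusted p = 4.12e-15). Tnfrsf11b, which encodes its decoy receptor osteoprotegerin, had 11.2, 11.4 and 11.7 CPM at day 3, against 70.7, 63.4 and 66.2 CPM at day 0 (log2 fold change −2.55 ± 0.08 SE, adjusted p = 5.31e-17), and Csf1 fell to 0.475 times its day 0 level. In the prostaglandin pathway Ptgs2 fell to 0.0330 times, while the E2 synthase gene Ptges had 51.5, 49.8 and 51.6 CPM in the day 3 libraries and 11.1, 12.4 and 12.1 CPM in the day 0 libraries (log2 fold change 2.11 ± 0.08 SE, adjusted p = 2.82e-16) and the F2-alpha receptor gene Ptgfr rose 7.59-fold.

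Macrophage genes rose in 19 of 25 cases and fell in 4, by a median of 0.59, and their summed share was 2.80% to 3.0% of reads at day 3 and 1.82% to 1.87% at day 0. This sum stands beside every immune result above, and its part in them was not tested. The genes did not keep 1 ratio. Marco had 3902, 4069 and 3866 CPM in day 3 cells, compared with 262, 396 and 330.4 CPM in day 0 cells (log2 fold change 3.58 ± 0.10 SE, adjusted p = 3.92e-18), the Fc receptor gene Fcgr4 rose 6.75-fold, Itgam, which encodes CD11b, 4.22-fold, and Cd68 1.22-fold, whereas Ptprc, the pan-leukocyte gene CD45, and Csf1r, the receptor of CSF1, fell to 0.848 times and 0.676 times the day 0 level. Of 13 genes of inflammatory and dendritic cells 5 rose and 6 fell, all 6 of them at least 2-fold. Those that fell included Cx3cr1 and Mmp12, given above. Among those that rose, Nos2 had 710 reads at day 3 and 3 at day 0, 245-fold (counting interval 83.5 to 1191) higher, and Plac8 had 59.6, 52.9 and 55.5 CPM at day 3, against 1.02, 1.23 and 1.10 CPM at day 0 (log2 fold change 5.64 ± 0.12 SE, adjusted p = 1.41e-20). Neutrophil markers were low, and Ly6g and Ngp had no read on either day, although S100a8 had 17.4 ± 1.24 CPM at day 3 and 1.5 ± 0.452 CPM at day 0 (SD, n = 3).

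Genes of the osteoclast, the bone-resorbing cell that arises from the same myeloid lineage, were mixed. Of 10 tested, 5 rose and 4 fell. Acp5, which encodes the acid phosphatase TRAP, had 99.2, 91.3 and 91.9 CPM in the day 3 libraries and 4.57, 9.36 and 3.82 CPM in the day 0 libraries (log2 fold change 4.0 ± 0.15 SE, adjusted p = 3.05e-16). Atp6v0d2, a proton pump subunit gene needed for cell fusion, had 2.83, 3.76 and 3.67 CPM in day 3 cells, compared with 30, 35.5 and 34.0 CPM in day 0 cells (log2 fold change −3.27 ± 0.14 SE, adjusted p = 2.61e-15), and Itgb3 fell to 0.303 times its day 0 level. Calcr, which encodes the calcitonin receptor of mature osteoclasts, had 4 reads at day 3 and none at day 0, and Dcstamp and Ocstamp, the fusion genes, had 3 and 6 reads at day 3 and 14 and 24 at day 0. Among 29 lysosomal genes 20 rose and 3 fell. The protease gene Ctsl had 2029, 1798 and 1823 CPM at day 3, against 643, 734 and 737 CPM at day 0 (log2 fold change 1.42 ± 0.06 SE, adjusted p = 6.10e-15), the cholesterol carrier gene Npc2 rose 2.36-fold, and the acid lipase gene Lipa fell to 0.286 times its day 0 level.

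Outside all lists, the 10 genes with the largest increase included Jaml and the Schlafen genes Slfn1 and Slfn4, which are known from myeloid or lymphoid cells. Slfn4 had 197, 226 and 309.8 CPM in the day 3 libraries and 1.46, 1.39 and 0.927 CPM in the day 0 libraries (log2 fold change 7.58 ± 0.19 SE, adjusted p = 4.97e-19). Others are stromal or of wider expression: Scara5, a ferritin receptor gene of fibroblasts, had 453, 434 and 468 CPM in day 3 cells, compared with 2.09, 3.62 and 2.43 CPM in day 0 cells (log2 fold change 7.39 ± 0.10 SE, adjusted p = 7.37e-24), the monooxygenase gene Fmo1 had 228, 245 and 233 CPM at day 3, against 1.36, 1.45 and 1.56 CPM at day 0 (log2 fold change 7.33 ± 0.09 SE, adjusted p = 5.02e-24), and Slc10a6, a transporter of sulfated steroids, had 34.3 ± 1.89 CPM at day 3 and 0.171 ± 0.150 CPM at day 0 (SD, n = 3). The axon guidance gene Draxin had 2193 reads at day 3 and 7 at day 0. The largest decreases outside the lists were those of Gpr34, a lysophosphatidylserine receptor gene of macrophages and microglia (log2 fold change −4.88 ± 0.25 SE, adjusted p = 1.25e-13), Sema7a, Nanos1, Neurl3, Prkg2, Rgs1, Fcrls, F2rl1, Chn2 and Arl4c. Fcrls, a scavenger-like receptor gene of tissue macrophages, had 21.2, 26.7 and 26.2 CPM in the day 3 libraries and 367, 297 and 347 CPM in the day 0 libraries, and Arl4c had 9.09, 9.53 and 10.4 CPM in day 3 cells, compared with 123, 124 and 122 CPM in day 0 cells.

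Genes commonly used to normalise PCR were not all steady. Of 21 tested, 10 fell and 3 rose (12 and 2 with library-total scaling). Tbp was at 0.04 (95% interval −0.14 to 0.22), Pgk1 at 0.04 (95% interval −0.07 to 0.14) and Gapdh at −0.06 (95% interval −0.20 to 0.08, called lower with library-total scaling), all on the log2 scale. Actb (−0.44), Hprt (−0.45), Tfrc (−1.59) and B2m (2.03) changed, and the direction of these 4 was the same under each scaling. Of all tested genes, 2754 (21.2%) had a 95% interval that lay within 1.25-fold of no change, and 426 of these were called.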

How the data were processed

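RNA sequencing was done on 9 libraries, 3 per group, of which the 6 control libraries were compared. Reads were handled by the authors with HTSeq, HISAT2 and cutadapt on build GRCm39, per the submitters' processing notes. Tool versions, the annotation release and whether counting used strand are not given in these sources, so overlapping genes may share reads. The authors deposited whole read counts per gene, not normalized, and FPKM values beside them. FPKM served only for levels between genes. Library preparation used an NEBNext Ultra II RNA kit after TRIzol extraction, per the labels' protocols.

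Genes passing filterByExpr (minimum count 10) were fitted in edgeR 4.0.16 (R 4.3.3) on the counts with TMM scaling, a quasi-likelihood model and 1 mean per group over all 9 libraries, which share 1 estimate of spread (biological coefficient of variation 0.0558; 0.0426 at day 3 and 0.0492 at day 0 alone). Standard errors are the fold change over the root of F. CPM are means ± SD over 3 libraries. A floor of 3 counts was 0.155 to 0.186 CPM at day 3 and 0.146 to 0.174 CPM at day 0, and such floors and counting intervals reflect counting error alone. Ratios against 1 to 3 reads carry a 95% counting interval (exact binomial). Marker sums were taken over library totals. The fit was tested on simulated counts. Replicates differed by more than sampling noise (chi-square over its degrees of freedom 2.65 to 4.34).

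The comparison, the 62 gene lists (1439 gene entries, 24 matched through synonyms and 7 without a row) and the rule for named genes were chosen with earlier results of these data known. The rule takes lineage genes of the system, the 10 largest gains and losses in CPM, the 10 largest log2 fold changes each way outside all lists (at least 10 CPM), and in each list 4 called members of largest fold change (at least 5 CPM) and the 2 most abundant. E2f1, Kif2c, Kdm5d and Ifit1 were also named after their values were seen. Some list genes, such as Fen1, Gpx1 and S100a4, had few reads in all libraries (at most 32 per group). The cause was not tested. Alternatives were other scalings, other filters on low counts, DESeq2 1.42.0, the 6 libraries alone, a replicate block and leaving out each library. Promoter sequences came from RefSeq (GRCm38.p6). Results of some single genes are not reported here.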

Additional observations from a re-analysis of the deposited data

How the results depend on the processing

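The number of called genes (8522) stayed within 1.5 times its value in all 13 alternatives tried, as did the counts by direction and at 2-fold. It was 8533 with median-ratio size factors, 8821 with library totals, 8801 without a filter, 7818 with a minimum count of 50, 8760 with the 6 control libraries alone and 8217 with DESeq2. Leaving out 1 library gave 7970 to 8125. Of the 2370 genes called at 2-fold or more, between 76.5% (minimum count 50, where fewer genes were tested) and 99.96% were called in the same direction. Same-numbered libraries did not deviate together (correlations 0.0284, 0.00606 and −0.000589). With 3 libraries a group this cannot tell whether equal replicate numbers share an origin, which is not stated. With a replicate block 8719 genes were called, and 98.7% of the calls were kept. No named gene reversed. Of the 388 named genes tested, 27 crossed the threshold in at least 1 alternative. Among them, Cd14, Cdh5, Ccng1, Esr1, Kdr, Uty and Serpinf1 lost their call in 5 to 7. Statements on genes with few reads, such as Bglap and Mt2, are limited, and why they had few was not tested.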
